A study of Mus musculus with 9 samples.

Results

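Circular RNAs (circRNAs) were profiled in the liver of chow-fed mice, the control group of a diet study, as a picture of which circles gave signal in this tissue and how much they varied. The members were the 3 arrays titled as controls, of 9 arrays in the series, with all 30534 circRNA probes and their 30534 partner probes, of 61079 probes in all other than array controls. The control mice were male C57BL/6J, an inbred wild-type strain, ate normal chow for 17 weeks and were 20 weeks old at collection. The other arrays held pools of mice on a diet with 45% of its energy as fat, with 5 weeks of gavage. Those titled as metformin got the drug at 3 mg per kg per day. These other arrays entered only the limma fit that is named as holding all 9 arrays. Liver of 4 mice was mixed for each array, and errors over arrays therefore describe pools and not single animals. Per the labels' protocols, total RNA was extracted from 15 mg of tissue, and RNase R acted on 5 µg for 30 minutes ahead of Cy3 labelling. No array of undigested RNA was among the samples, so the loss of linear RNA was not measured.

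A circRNA forms when the spliceosome joins the end of an exon back to the start of the same or an earlier exon, a reaction called back-splicing. The product has no free ends, and RNase R, an exonuclease that degrades linear RNA from its ends, largely spares it. A gene can give several circles that differ in the exons at which they open and close, and many circles form in competition with the linear transcript of the same gene. A sequence that separates a circle from its linear transcript is the back-splice junction. In liver, circles arise from genes used in hepatocytes as well as in the other cells of the tissue.

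Each circRNA had 1 probe on the array and 1 partner of the same name with the ending _neg. The sources used here do not say what the partners bind, and their signal was taken as a paired reading whose origin is unknown. Of the circRNAs, 14043 were named by chromosome, end, start and span in mouse genome build mm9, 13892 by an mmu_circ number, 2075 by a Fan code and 524 by an mmu-circRNA number. No table used here links a probe to a host gene or gives its sequence. Circles are therefore named by position or number without exon or intron, and the liver label was not checked against marker genes. Coordinates are those in the probe names. A level is the log2 intensity of a probe minus the 75th percentile of its array, so that 0 is the brightness that 25 in 100 probes exceed. Levels of different probes are brightness and not abundance, because probes differ in sequence and labelling.

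Most circRNA probes gave signal in chow-fed liver. The share of them that the scanner software marked as well above background was 86.2% on replicate 1, 86.0% on replicate 2 and 89.2% on replicate 3, a mean of 87.1% ± 1.79 (SD, n = 3). Partners passed less often, with 74.0%, 74.6% and 79.3% (76.0% ± 2.92, SD, n = 3). A probe well above background on all 3 arrays was counted as measured. This held for 25808 circRNA probes (84.5%) and 21962 partners (71.9%), while 3088 circRNA probes (10.1%) passed on no array and 1638 on some. Both probes of a pair were measured for 21252 circRNAs, and neither passed on any array for 2457.

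The level spanned a wide range. The median circRNA level was -1.33, -1.36 and -1.42 on the 3 arrays (mean -1.37 ± 0.043, SD, n = 3), and that of the partners was -2.53, -2.58 and -2.62 (mean -2.58 ± 0.046, SD, n = 3). On every array the partners' median lay below that of the circRNA probes, by more than either differed between arrays. Signal was concentrated in few probes: the brightest 1% of circRNA probes, between 299 and 303 per array, held 34.2% to 36.0% of the summed circRNA intensity, and the brightest 10 held 6.31% to 6.85%. The dimmest 50% held only 3.45% to 3.67%. No circRNA probe was saturated on these arrays. Another 11 probes, in 10 spots each, are named Kana and Rluc and were taken as foreign to mouse. Between 71.2% and 74.5% of circRNA probes were brighter than every one of them.

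**Figure D1:**
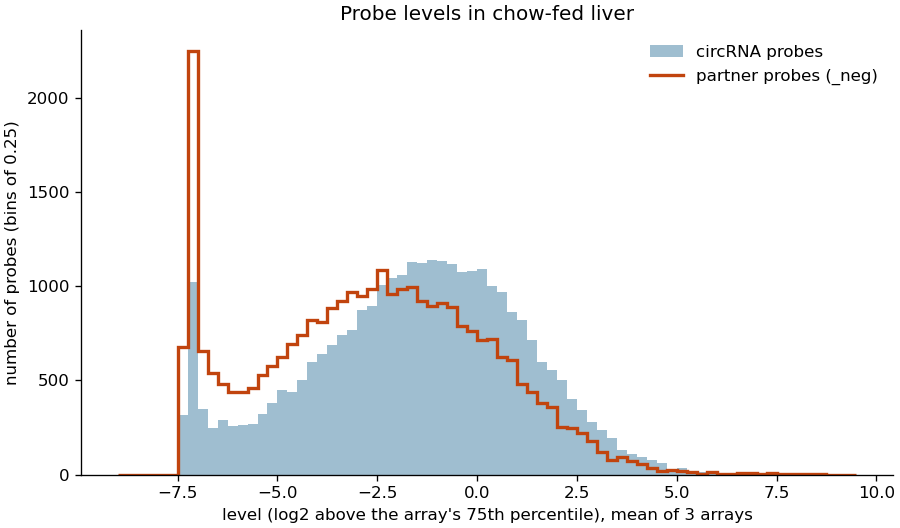
Number of probes (vertical axis) at each level, in bins of 0.25 (horizontal axis, log2 above the array's 75th percentile, mean of the 3 control arrays), for circRNA probes (filled) and partners (line). The circRNA probes sit higher, with a per-array median of -1.37 against -2.58, and both kinds have a narrow peak of dim probes near the low end.

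The 10 brightest circRNA probes were all numbered circles without a position in their name. The brightest, mmu_circ_0015495, read 8.76, 8.76 and 8.79, and its neighbour in number, mmu_circ_0015494, read 8.69, 8.71 and 8.57. The other eight, in order of level, were mmu_circ_0004203 (mean 8.62), mmu_circ_0009091 (8.57), mmu_circ_0014067 (8.52), mmu_circ_0014873 (8.42), mmu_circ_0005713 (8.28), mmu_circ_0008792 (8.25), mmu_circ_0006672 (8.25) and mmu_circ_0010286 (8.18). The SDs of the 10 probes over the arrays lay between 0.017 and 0.313. The lowest reading of mmu_circ_0015495 (8.76) lay above the highest of mmu_circ_0015494 (8.71), while the readings of all later neighbours in this order overlapped. The partners of the 10 probes were bright as well, with means from 7.11 to 8.70. For mmu_circ_0015495 the partner read 8.58, 8.09 and 7.84, below the circRNA probe on each array.

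To ask which circRNA probes outshone their partner, the difference circRNA probe minus partner was formed within each array and tested against 0 with limma over the 3 arrays. A limma SE below is the moderated SE of that fit, which draws the variance of each pair toward a value common to all pairs. It is not the plain SE of the 3 differences. Probes differ in sequence and labelling, so a call says that a gap in brightness was repeatable over the arrays. It does not say what made the gap. The fit held the 20125 pairs with both probes measured and unflagged, and a further 1127 measured pairs had a flagged spot and were not tested. The circRNA probe was brighter in 13463 of 20125 pairs (66.9%) and the partner in 2854 (14.2%) at a Benjamini-Hochberg adjusted p under 0.05 over all pairs. In either direction 16317 (81.1%) were called, and 3808 (18.9%) were not. The median difference was 0.64, or 1.56-fold, with quartiles of 0.065 and 1.60, against a median SD over the arrays of 0.136. The mean difference exceeded 2-fold for 7807 pairs (38.8%) and 8-fold for 1363 (6.77%), while the partner was over 2-fold brighter in 1055 (5.24%). Tested against a 2-fold difference (limma's treat) in place of 0, 6480 and 741 pairs were called. Since both probes had to be measured, the filter leaves out circles whose partner was dim: 2649 circRNA probes were measured where the partner passed on no array, and 336 partners where the circRNA probe passed on none. For 2623 of the former the circRNA probe was at least 4.04-fold brighter at the median and at least 982-fold at most, against the higher of the partner's own signal and the lowest signal that any probe well above background had on the same array. For 327 of the latter the corresponding median was at least 2.77-fold and the highest at least 55.7-fold.

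**Figure D2:**
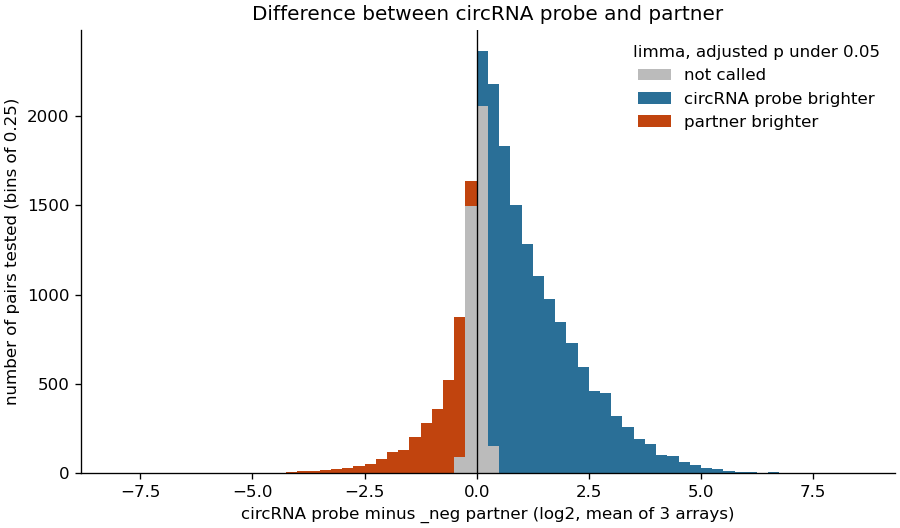
Number of pairs (vertical axis, bins of 0.25) by circRNA probe minus partner (horizontal axis, log2, mean of the 3 control arrays) for the 20125 pairs tested, stacked by call. The circRNA probe was called brighter in 13463 pairs and the partner in 2854, and the 3808 pairs not called lie around 0.

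The share called with a brighter circRNA probe did not follow the order of brightness. In 4 equal parts of the tested pairs from dim to bright, the circRNA probe was brighter in 63.8%, 71.3%, 70.3% and 62.2%, while the median SD over the arrays was 0.222 in the dimmest part and 0.0877 in the brightest. The share with a brighter partner fell at each step, with 16.7%, 14.2%, 13.2% and 12.6%. Probe and partner levels were correlated across circles, with a Spearman correlation of 0.808 to 0.810 on the 3 arrays. This is a description with no test, since all pairs of an array share its RNA and labelling.

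The position-named circle with the largest difference lay on chromosome 10 and spans 1472 bases (chr10:80245929-80247401). Its circRNA probe read 4.94, 4.50 and 4.48, and its partner -3.06, -3.41 and -3.53. The groups of 3 values did not overlap, and the difference was 7.97 ± 0.071 (limma SE, n = 3), or 251-fold (limma adjusted p = 9.16e-07). A circle of 27654 bases on chromosome 11 (chr11:71906030-71933684) read 2.21, 2.68 and 2.81 against -4.39, -4.73 and -4.92, a difference of 7.25 ± 0.21 (limma SE, n = 3). The circle chr1:88641256-88664358 read 3.45, 3.56 and 3.53 against -3.52, -3.10 and -3.27, a difference of 6.82 ± 0.086 (limma SE, n = 3), and it had the smallest SD of level (0.058) of these first 3. The next were chr5:52552132-52572414 with a difference of 6.64, chr14:103659413-103675735 with 6.60 and chr16:46448242-46464620 with 6.55. The last 4 of the 10 were chr18:60854990-60873286 (6.29), chr17:32389986-32403465 (6.24), chr7:138567986-138584853 (6.22) and chr7:71839910-71860433 (6.16), the smallest being 71.4-fold. All 10 adjusted p-values of the limma fit lay between 9.16e-07 and 1.91e-06. Of the 10 circles, 9 span between 13479 and 27654 bases. Over 13964 position-named circles, however, probe minus partner barely followed span (Spearman correlation 0.013, without a test). After normexp background correction, which raises dim probes, the differences of these 10 were smaller and in another order: 7.12 (139-fold) for the chromosome 10 circle, 5.74 (53.4-fold) for chr11:71906030-71933684, and down to 4.71 (26.1-fold) for chr18:60854990-60873286. The circle on chromosome 14 lies in a crowded locus of 14 circles.

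Among position-named circles, 5 with the most negative differences showed the reverse pattern. For chr8:115276088-115297638 the circRNA probe read -4.25, -4.62 and -4.26, near the bottom of the measured range, and its partner 2.67, 2.98 and 2.44. The difference was -7.07 ± 0.18 (limma SE, n = 3), with the partner 135-fold brighter (limma adjusted p = 1.16e-06), or 51.1-fold after normexp. The other four were chr8:48271628-48288627 (-6.26), chr11:60361190-60367896 (-5.67), chr3:29547139-29556189 (-5.41) and chr17:94033275-94047616 (-4.98). Circles without a position in their name are outside this list and the preceding one, and some of them differed by more. In each of these 5 the partner was brighter on all 3 arrays, by 31.6-fold at the least on average (20.7-fold after normexp). In the authors' deposited table, a circRNA whose partner was brighter stands at a floor: 2845 of the 2854 called partner-brighter were at the floor on all 3 arrays, and 13451 of the 13463 called circRNA-brighter were above it on all 3. That table put 22.8%, 23.3% and 23.1% of circRNAs of the 3 arrays at the floor.

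Among the 10 brightest probes, differences from the partner were small. The largest belonged to mmu_circ_0008792, whose probe exceeded its partner by 1.15 ± 0.091 (limma SE, n = 3), or 2.22-fold (limma adjusted p = 6.74e-05). For mmu_circ_0015495 the difference was 0.60 ± 0.15 (limma SE, n = 3), with limma adjusted p = 0.0113, and 0.0564 with a trended, robust variance model. For mmu_circ_0014873 and mmu_circ_0009091 the difference did not pass, at 0.26 (limma adjusted p = 0.0671) and -0.13 (limma adjusted p = 0.169). With the trended, robust model they did (limma adjusted p = 0.0217 and 0.0184), and mmu_circ_0014873 also passed after normexp (0.0364), with all 9 arrays in the limma fit (0.0333) and without replicate 1 (0.00876), whereas mmu_circ_0009091 turned sign after normexp.

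Position-named circles ranged in span, the genomic distance between the ends of the circle, from 100 to 29990 bases, with a median of 8108 and quartiles of 3155 and 15710.5. Shorter circles were brighter. The per-array median level was -1.17 for spans under 1 kb (1370 circles), -1.42 for 1 to under 5 kb (3540), -1.43 for 5 to under 10 kb (3175), -1.63 for 10 to under 20 kb (3825) and -1.88 for 20 kb and more (2133), with SDs over the arrays between 0.039 and 0.062. On replicate 1 the shortest class stood at -1.14 and the longest at -1.82, on replicate 2 at -1.16 and -1.89, and on replicate 3 at -1.22 and -1.94. The shortest minus the longest class was 0.71 ± 0.031 (SD, n = 3), the same sign on 3 of 3 arrays (exact permutation test with signs turned, two-sided, p = 0.25, the smallest that 3 arrays allow). The partners differed by more, their shortest class being 0.92 ± 0.057 (SD, n = 3) above the longest. The median probe minus partner differed little, by -0.058 ± 0.029 (SD, n = 3), and it turned to 0.091 over circles with both probes measured. Over those circles the level difference was 0.23. Circles well above background made up 86.7% ± 1.65 (SD, n = 3) of the shortest class and 82.8% ± 2.46 (SD, n = 3) of the longest. Across single circles the relation was weak (Spearman correlation of level with span -0.074 over 14002 circles of the same arrays).

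The shortest circle of the array, chr10:108339271-108339371 with 100 bases, passed on 1 array and read -4.83, -5.73 and -5.07. The shortest circle with a brighter circRNA probe, chr9:58338099-58338199, also spans 100 bases and read 2.58, 2.45 and 2.16, with a difference of 1.79 ± 0.10 (limma SE, n = 3). The longest of the array was also the longest called: chr16:44407446-44437436 spans 29990 bases and read -1.58, -1.59 and -1.56, 2.77-fold above its partner. A class of 50 kb and more was planned and held no circle.

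**Figure D3:**
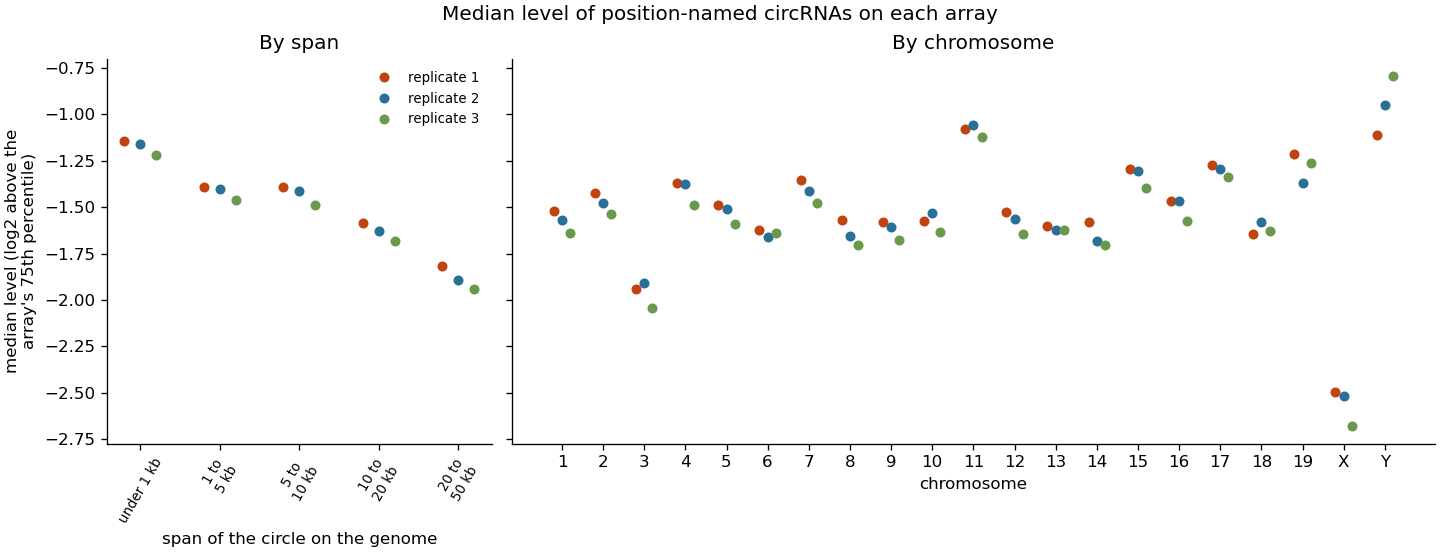
Median level of position-named circRNA probes (vertical axis, log2 above the array's 75th percentile) on each of the 3 control arrays (colours), by span class (left, kb) and by chromosome (right). The classes fall from -1.17 to -1.88 as per-array means, and chromosome X (361 circles) stands below every autosome on each array.

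Circles from the X chromosome were dimmer and less often detected than those of the autosomes, and the array carries fewer probes for them. It holds 361 X circles, or 2.24 per megabase between the first and the last, against 4.42 (chromosome 3) to 8.98 (chromosome 11) on the autosomes, which is a count of probes and not of circles made in liver. X circles were well above background in 74.2%, 75.1% and 79.2% of cases on the 3 arrays, against 85.0%, 84.9% and 88.4% for autosomes, a difference of -9.91 percentage points ± 0.80 (SD, n = 3). The median level was -2.50, -2.51 and -2.68 on X and -1.46, -1.50 and -1.55 on autosomes, a difference of -1.06 ± 0.059 (SD, n = 3). The sign was the same on 3 of 3 arrays, with p = 0.25 in the exact two-sided permutation test, the smallest possible. The partners of X circles were lower too, by -0.73 ± 0.022 (SD, n = 3), and the probe minus partner was lower by -0.27 ± 0.038 (SD, n = 3). Over circles with both probes measured these differences were -0.34 in level and -0.19 in probe minus partner. X was lower in each of 5 span classes, from -1.34 against -1.14 under 1 kb to -3.52 against -1.83 at 20 kb and more. Of 189 X circles tested, the circRNA probe was brighter in 112 (59.3%) and the partner in 31 (16.4%), beside 66.9% and 14.2% over all pairs. Among autosomes chromosome 11 had the highest median level (-1.09) and chromosome 3 the lowest (-1.96).

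Chromosome Y carried 17 circles, from 253084 to 704711, of which 15 were measured. The circles named here were chosen after their values were seen. Their median level was -0.95 ± 0.16 (SD, n = 3), above that of the autosomes on all 3 arrays (exact two-sided permutation test, p = 0.25, the smallest possible). The brightest, chrY:353807-359917, read 0.83, 1.11 and 1.09 and was 2.38-fold above its partner. A pair that shares an end differed in its partner signal: chrY:264413-264827 read 0.92, 0.63 and 0.99, 11.4-fold above its partner, while chrY:263450-264827 read -0.26, -0.32 and -0.16, 1.71-fold above. Of 10 Y circles tested (beside 66.9% circRNA-brighter and 14.2% partner-brighter over all pairs), 9 had a brighter circRNA probe and 1, chrY:661302-678323, a brighter partner (-0.54 ± 0.11, limma SE, n = 3, limma adjusted p = 0.00469).

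Overlapping circles were joined into loci. The 14043 position-named circles formed 7858 loci, of which 5197 (66.1%) held 1 circle. Another 1327 loci held 3 or more, with 6178 circles (44.0%) between them, and 71 held 10 or more. At the 71 loci the difference between the highest and lowest mean level of a locus's circles was 5.42 at the median (range 2.09 to 11.0). These values include circles that were not measured and so reach toward background. Over the 4717 measured circles of loci with 3 or more such circles, the SD of level within a locus was 1.45, against 1.86 in all. Circles of one place thus still differed in brightness. Members of a locus were nevertheless more alike than circles at large. The 4717 circles in 1016 loci were chosen on the circRNA probe alone. Their partners did not have to be measured, so the shares below are not on equal terms. Among these circles, 39.1% of the variance of level lay between loci, against 24.6% for the partners and 11.8% for probe minus partner. Between circles that share a start it was 56.0% and between those that share an end 56.5%, while the median absolute difference of level was 0.97 in 1970 pairs with the same start, 1.03 in 1894 with the same end, 1.42 in 4752 that overlap without sharing either, and 1.90 between all measured circles. The partners of circles with the same start differed by 1.59, against 2.28 for overlapping circles that share neither and 2.43 between all measured circles. No test was made, since circles of a locus share their sequence in part.

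The locus with the most circles, on chromosome 7 (80608522 to 80664594), held 22 circles with 11 starts and 12 ends, and 21 were measured. Levels ran from -5.70, at a circle that passed on no array, to 2.78. Of 17 tested, 14 were called brighter than their partner and none dimmer, beside 66.9% and 14.2% over all pairs. Its brightest circle, chr7:80658976-80660698, read 2.96, 2.66 and 2.74, with its partner close behind at 2.54, 2.37 and 2.53. A pair of circles shows how far partners could part, and were chosen after their values were seen. The 124-base circle chr7:80642593-80642717 averaged 1.89 with its partner at 2.04, whereas chr7:80646795-80664594 averaged 0.79 with its partner at -3.90. The dimmest measured circle, chr7:80635365-80636310, read -3.47, -3.50 and -3.05.

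The other four loci had these counts, to be read against the same 66.9% and 14.2%. On chromosome 11 (23270239 to 23321366), 14 of 14 tested circles of 20 outshone their partner. Levels there ran from -5.27, at a circle that passed on 1 array only, to -0.22. On chromosome 4 (126545961 to 126603267), partners were nearly as bright as circles, and 9 of 18 tested were called brighter and 6 dimmer. On chromosome 2 (91388931 to 91441283), 6 of 9 were brighter and 2 dimmer, close to the overall shares, and the brightest circle there, chr2:91399206-91421395, read 0.61, 0.70 and 0.78, 30.1-fold above its partner (13.5-fold after normexp). The second locus on chromosome 11 (84819310 to 84894751) had 18 circles, of which 7 of 12 tested were brighter and 1 dimmer; chr11:84839021-84853672 was the brightest with 1.29, 1.21 and 1.52.

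**Figure D4:**
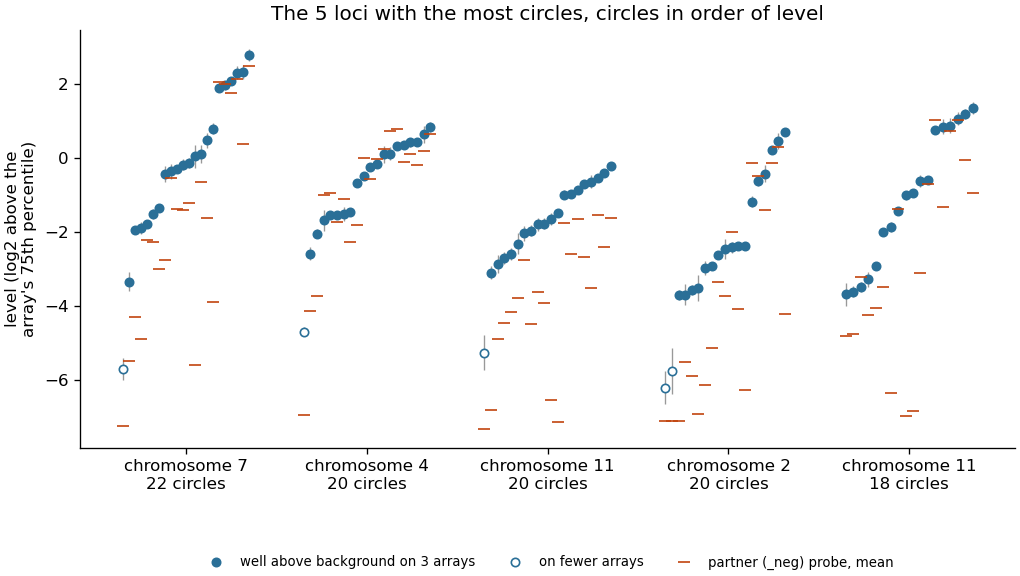
Level (vertical axis, log2 above the array's 75th percentile) of the circles at the 5 loci with the most circles, as mean and SD of 3 control arrays (points with bars) with the mean of the partner (dashes), each locus in order of level. The loci hold 22, 20, 20, 20 and 18 circles, and 1 circle of the chromosome 2 locus had a flagged spot and is not drawn.

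Between the 3 pools the profile was close to identical for most circles. Levels correlated with r = 0.988 to 0.992 between arrays, across probes, and the median SD over 25027 measured, unflagged circRNA probes was 0.148, from 0.208 in the dimmest of 4 equal parts to 0.118 in the brightest. Replicate 1 stood a little apart on the high side: 77 circles (0.31% of the 25027) were at least 2-fold above both other arrays on replicate 1, 1 on replicate 2 and 9 on replicate 3. Circles at least 2-fold below both other arrays numbered 9, 8 and 6 on replicates 1, 2 and 3. The median absolute difference of level was 0.198 between replicates 1 and 2, 0.213 between 1 and 3 and 0.164 between 2 and 3. Without replicate 1 the median SD was 0.0989, but an SD over 2 arrays cannot be set directly against one over 3. Of the 77, 40 were numbered and 31 position-named, from 16 chromosomes. Where the partner was measured too, it was above both other arrays on replicate 1 for 45 of 51. The same share over all measured partners is not given here, so this count has no baseline. The highest of the 77 circles was mmu_circ_0014297, 6.77-fold above the mean of the other arrays (-0.49, -3.16 and -3.33), followed by mmu-circRNA1524 (2.88, 0.44 and 0.22) and mmu-circRNA789 (-2.35, -4.53 and -5.25). The partner of mmu_circ_0014297 read -1.27, -3.73 and -3.99 and was thus also highest on replicate 1. Likewise mmu_circ_0003734 read 0.14, -2.07 and -2.66 with its partner at 0.70, -1.98 and -2.29. The chromosome 6 circle chr6:56731795-56734149 had the largest SD of all (2.18): it read -4.41 on replicate 1 and -0.57 and -0.70 on the others, while its partner stayed at -1.02, -0.88 and -0.94. Its probe minus partner was -0.95 (limma adjusted p = 0.274) with replicate 1 and 0.27 (limma adjusted p = 0.0366) without.

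Runs of numbered circles moved together, and these runs and the rule that found them (at least 4 circles, numbers at most 3 apart) were chosen after the values were seen. A first, stricter rule (consecutive numbers, at least 3 circles) had found 1 run. From mmu_circ_0001575 to mmu_circ_0001579, 5 circles averaged -1.71 on replicate 1 and -3.76 and -3.96 on the others, 4.45-fold apart. From mmu_circ_0014292 to mmu_circ_0014299, 5 circles averaged -0.66, -2.76 and -2.95, 4.58-fold apart. The circle mmu_circ_0014295 lies inside this range and was measured, but read -2.42, -2.94 and -3.46, short of the 2-fold gap, and is not among the 5. In the first run no partner was measured on all 3 arrays. Those of mmu_circ_0001576 (-3.68, -6.63 and -7.43) and mmu_circ_0001578 (-3.81, -5.33 and -5.33) passed on 1 array and were highest on replicate 1. In the second, the measured partners of mmu_circ_0014296 (-1.37, -4.14 and -4.82) and mmu_circ_0014297 (-1.27, -3.73 and -3.99) were highest on replicate 1. Those of mmu_circ_0014292 (-1.83, -1.76 and -1.99) and mmu_circ_0014293 (-2.92, -2.72 and -3.23), also measured, were not. A locus on chromosome 2 (76685445 to 76726144, 16 circles of which 12 are compared) was highest on replicate 3 instead, with means of -2.33, -2.81 and -1.68 on the 3 arrays. It was the only 1 of 1016 loci whose array means spread by over 1 (1.13). Within it chr2:76692444-76719896 read -2.06, -2.71 and -0.68, with its partner near the low end at -6.97, -7.15 and -7.59. Most partners at this locus were also highest on replicate 3, such as that of chr2:76691662-76694423 (-3.75, -4.59 and -2.46). Others were not, such as that of chr2:76685445-76696044 (-0.54, -1.23 and -1.11). Whether the differences belong to single mice of a pool was not tested, since the arrays hold pools.

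**Figure D5:**
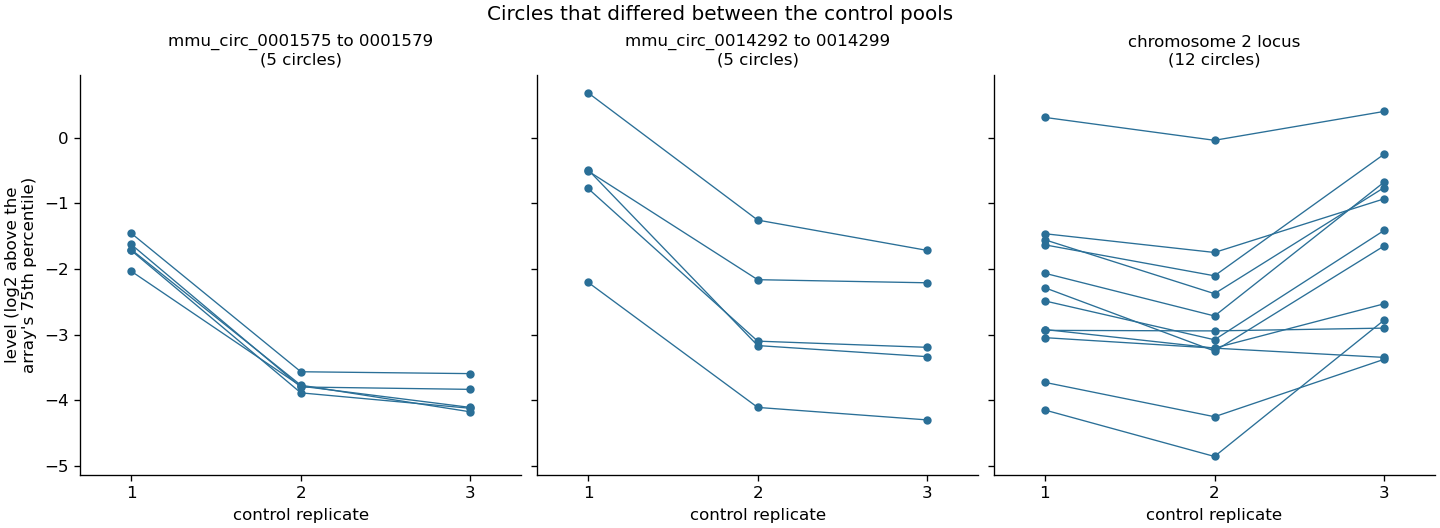
Level (vertical axis, log2 above the array's 75th percentile) of single circles on the 3 control arrays (horizontal axis), with a line per circle. The circles of both numbered runs were highest on replicate 1, and most of those of the chromosome 2 locus on replicate 3.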

How the data were processed

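Liver RNA pools were hybridised to 1-colour Agilent-format mouse circRNA arrays. Per the file headers, the deposited intensity is background-subtracted and detrended per array by Agilent Feature Extraction 11.5.1.1 (the submitters' processing notes name 10.7) and is not scaled between arrays. The authors also deposited log2 values per circRNA; as far as the values show, they are log2 of a quantile-normalised difference of circRNA probe and partner, with a floor. Here log2 intensity minus each array's 75th percentile was used. Outlier spots (407 to 1277 per array) were left out, and the scanner software's flags defined well above background. Differences were tested with limma 3.58.1 in R 4.3.3 (2 residual and 3.57 prior degrees of freedom). The test was checked on simulated data. The named circles are the 10 largest and 5 most negative differences among position-named circles, the 10 brightest, the brightest and dimmest of the 5 fullest loci, the span extremes and the 5 largest SDs. Chromosome Y circles, the runs, their rule and the chromosome 2 locus were chosen after their values were seen. Members and lists were chosen with earlier results of these data known.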

Additional observations from a re-analysis of the deposited data

Results flagged for a closer look

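Of the 11 foreign probes, 3 (Kana3.0, Kana4.0 and Kana5.0) were well above background in all 10 spots of each of the 3 control arrays, a signal outside the circRNA measurement. Kana3.0 read -3.60, -3.77 and -3.63, Kana4.0 read -3.71, -3.68 and -3.68, and Kana5.0 read -2.91, -3.11 and -3.27. The 308 negative control spots had medians of -6.93, -7.07 and -7.54 on the same arrays. The brightest single spots among them read -0.51, -1.45 and -2.46, above the 3 Kana probes on each array. The sources used here do not say whether foreign RNA was added.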

How the results depend on the processing

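Counts of called pairs stayed within 1.5 times of the reported ones under another background correction, normalization, filter on dim probes and variance model, and with all 9 arrays in the fit; a limma test against a log2 difference of 1 left 6480 circRNA-brighter and 741 partner-brighter pairs. Leaving out each replicate in turn gave 12787 to 13189 and 2489 to 2743 pairs. A looser detection flag raised the share of circRNA probes above background to 94.5%. The median level was -1.84 when scaled to probes well above background, -1.14 after normexp on the median signal and -1.15 with quantile normalization added. After normexp, the shortest minus the longest span class was 0.59 in level and 0.0077 in probe minus partner. With both probes measured, these were 0.23 and 0.091. The X minus autosome level was -0.78 after normexp and -0.34 with both probes measured, and the probe minus partner -0.18 and -0.19. Joining circles only by a shared start or end put 48.2% of the variance of level between loci. The difference of mmu_circ_0009091 turned to 0.015 after normexp and 0.077 with quantile normalization, and that of chr6:56731795-56734149 ranged from -1.58 to 0.27 when 1 replicate was left out. The cause of these changes was not tested. The normexp settings and the chromosome filter were chosen after seeing the data, because the files used here hold no mean signal, and normexp on the mean signal was not run. No paired analysis was possible because only 1 group was used, so that replicate numbers pair no arrays; circRNA probe and partner were compared within each array. The number of arrays limits the precision.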

Other observations

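Circles named by kind differed slightly: numbered circles had a per-array median level of -1.22, against -1.52 for position-named ones, a difference of 0.30 ± 0.016 (SD, n = 3). Numbered circles with neighbouring numbers had similar levels (Spearman correlation 0.272 over 11994 pairs 1 number apart, 0.0102 over 11541 pairs 50 apart, without a test). The sources used here do not say whether numbers follow the genome.

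A pair of loci, chosen after their values were seen, lay at opposite ends of the median difference between circRNA probe and partner. On chromosome 13 (63272301 to 63300859), 3 circles were tested, and 2 had a brighter partner and none a brighter circRNA probe, with a median difference of -3.26. On chromosome 5 (66022952 to 66057550), the median difference of 5 circles, tested or not, was 4.45, and 3 of 3 tested were brighter than their partner. Over all pairs tested, the circRNA probe was brighter in 66.9% and the partner in 14.2%.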
